A study of Mus musculus with 86 samples.

Results

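The comparison described here set hearts of FVB mice that had received isoproterenol against hearts of C57BL/6 mice that had received it. Its members were chosen by the titles of the arrays, 11 of treated FVB and 10 of treated C57BL/6, or 21 of the 86 arrays of the series. A further treated FVB array, replicate 2, was left out because its line markers lay with C57BL/6, as described below. To find which differences were there without the drug, 10 arrays of untreated FVB and 11 of untreated C57BL/6 were set beside them. Both lines were wild type by the labels. Treated mice of both lines had a continuous infusion for 14 days at 120 µg of isoproterenol per g of body weight per day, assigned at random, and untreated mice had no infusion. The age and the sex of the mice are not given in the labels. The labels appear to speak of 20 mice per line, fewer than its arrays, and do not tie arrays to animals, so p-values measure the spread between arrays. The other 43 arrays, from the line named B2KO and from B6129SF2/J mice, entered only an alternative and a few values given for orientation.

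Isoproterenol is a synthetic agonist of the β-adrenergic receptors of the heart. These receptors raise cyclic AMP through a stimulatory G protein, and protein kinase A then speeds calcium cycling and the heartbeat. Sustained stimulation is a standard model of stress on the heart, known for enlargement of muscle cells, deposition of matrix and a switch in fuel use. In systolic dysfunction the ventricle contracts poorly, and in diastolic dysfunction it relaxes and fills poorly. By the submitters' design, FVB mice developed the first and C57BL/6 mice the second under this infusion, so the treated arrays compare the end states of both.

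Expression is given as log2 of the deposited intensity, on which 0 is the median of all probe sets of an array. A difference is FVB minus C57BL/6 on that scale, with its standard error (SE), and a gene was called at an adjusted p under 0.05 in limma, with Benjamini-Hochberg adjustment over all 11801 genes tested. The whole heart was measured, so fewer cells of a type and less RNA per cell cannot be told apart. Heart muscle markers checked the tissue: the summed level of 8 of them ran from 13.1 to 14.5 in treated FVB and from 13.5 to 14.01 in treated C57BL/6, and none of the 8 was called.

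The line labels of the treated arrays were checked with 200 probe sets chosen on the untreated arrays alone. In the 11 treated FVB arrays, 185 to 194 of the 200 lay nearer the mean of untreated FVB. In the 10 treated C57BL/6 arrays, 19 to 30 did. Treated FVB replicate 2 had 26, with a root mean square distance of 3.04 to untreated FVB and 1.05 to untreated C57BL/6. Its level of Gdpd3 was −2.84, where the other treated FVB arrays had at least 6.24. Genes of the infusion response were low on it as well. Periostin (Postn) was 5.47 there, against 7.93 to 8.78 on the other treated FVB arrays, 7.22 to 9.22 in treated C57BL/6 and 4.88 to 6.89 in untreated C57BL/6. Dio2 was 0.78 there, against 1.93 to 4.02, 2.10 to 4.04 and −0.79 to 1.32 in the same groups. On the treated arrays the 3-prime minus 5-prime difference of the Gapdh control was 0.15 lower in FVB (permutation p = 0.029, adjusted p = 0.0718 over 3 measures), and that of β-actin was 0.29 higher (p = 0.0479, adjusted p = 0.0718). Among untreated arrays, FVB replicate 10 had differences of 2.06 (Gapdh) and 4.18 (β-actin) against group medians of −0.14 and 1.17. Its median correlation with the other arrays of its group was 0.910, the lowest in that group. Untreated C57BL/6 replicate 11 had differences of 7.43 (Gapdh) and 2.88 (β-actin). Without these 2 arrays 1185 treated genes and 202 changed line differences were called, against 1041 and 251. Among the named genes, the change of the line difference missed the threshold there for Apoa2, Ier2, Prcc, Syt12, Slc1a1, Tnfrsf4, Zfp991 and Cxcl9. Their adjusted p in limma ran from 0.0531 (Syt12) to 0.07 (Prcc). The cause was not tested.

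**Figure D1:**
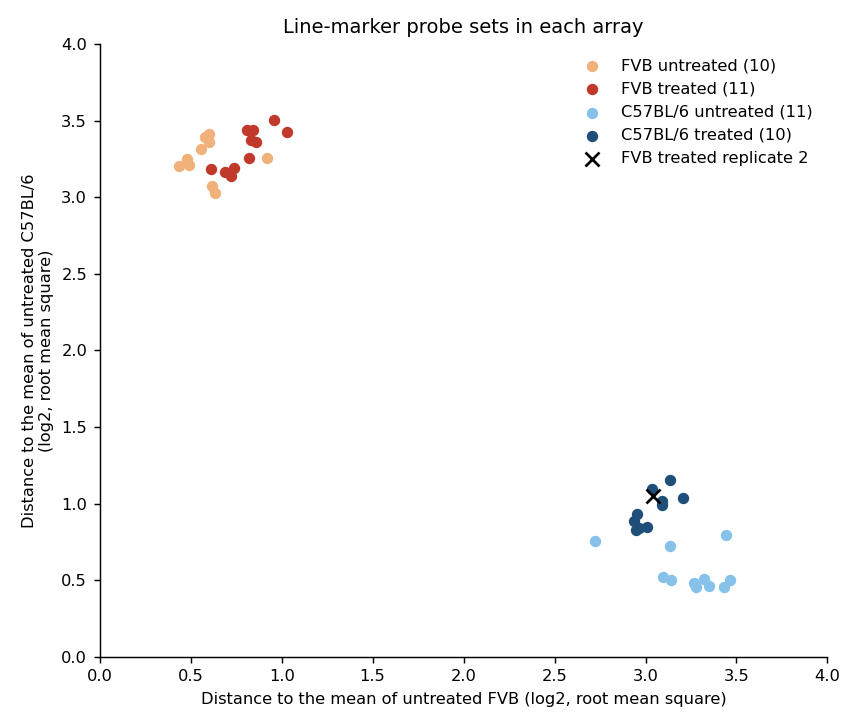
Root mean square distance (log2) of each array to the mean of untreated FVB (horizontal) and of untreated C57BL/6 (vertical) over the 200 line-marker probe sets, 1 point per array. Untreated arrays chose the markers. The 11 treated FVB arrays lie at upper left and the 10 treated C57BL/6 arrays at lower right, where treated FVB replicate 2 (cross) lies at 3.04 and 1.05.

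After infusion, 1041 of the 11801 genes differed between the lines, or 8.82%: 299 were higher in FVB (2.53%) and 742 lower (6.29%). Without infusion 1842 genes differed, or 15.6%. Of the 1041 genes, 506 already differed with the same sign in the untreated hearts, 57 did not and had a line difference that changed with infusion, and 13 had the opposite sign untreated. The remaining 465 were unresolved: neither their untreated difference nor its change with infusion was called. The change of the line difference was called for 251 genes (2.13%), 68 upward and 183 downward. Treated arrays of the lines did not overlap at all for 127 genes (1.08%), of which 114 were among those already different.

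The split of higher and lower calls depended on the scale. The median over all genes of the treated difference was −0.12, and it was −0.01 after quantile normalization and 0.03 after centring each array on the median of its genes. Calls higher in FVB made up 28.7% as deposited, 44.7% after quantile normalization and 52.1% after centring. With treated FVB replicate 2 kept, 965 genes were called, of which 888 were among the 1041.

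**Figure D2:**
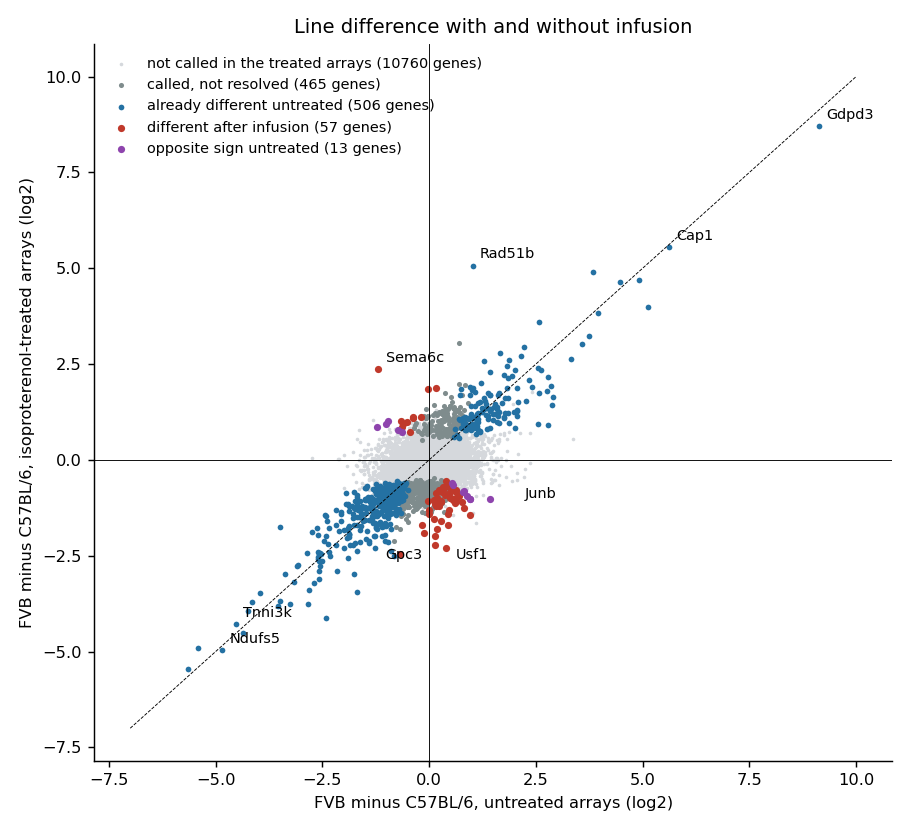
FVB minus C57BL/6 (log2) in untreated arrays (horizontal) and treated arrays (vertical), 1 point per gene, coloured by class. Dashes mark equal differences. The 506 genes already different run along the dashes from Ndufs5 (−4.85 untreated, −4.96 treated) to Gdpd3 (9.13 and 8.72), while Rad51b (1.02 and 5.07) lies far above them and Usf1 (0.41 and −2.29) far below.

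The genes already different without infusion held the largest treated differences. Gdpd3, a phosphodiesterase of lysophospholipids, ran from 6.24 through a median of 7.15 to 7.82 in treated FVB, and from −2.66 through −1.99 to 0.33 in treated C57BL/6. The groups lay far apart, by 8.72 (SE 0.27, adjusted p = 1.15e-30), and the untreated difference was 9.13. Cap1, which recycles actin monomers, was higher in treated FVB by 5.54 (SE 0.39, adjusted p = 1.78e-16) and untreated by 5.61. Fmn1, a formin that builds actin filaments, was higher by 4.69 (SE 0.26, adjusted p = 1.28e-20) and untreated by 4.92. Serpina1b, of the α1-antitrypsin family, and Ifi202b, of the interferon-inducible DNA sensor family, were higher by 4.64 and 3.83. For all of these genes the treated groups did not overlap.

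Tnni3k, a kinase restricted to the heart whose level is known to vary among inbred strains, lay on the other side. It ran from −0.31 through 0.88 to 1.57 in treated FVB, and from 4.47 through 5.21 to 5.45 in treated C57BL/6. Every FVB array was below every C57BL/6 array, with a difference of −4.28 (SE 0.20, adjusted p = 1.67e-23), and of −4.52 without infusion. Its other probe set was called with the same sign. Ndufs5, a subunit of respiratory complex I, was lower by 4.96 in treated FVB and by 4.85 in untreated FVB on its single probe set, with medians of 3.76 and 8.88 in the treated lines. Pttg1 (securin, a regulator of sister chromatid separation) was lower by 4.90, and both of its other probe sets were called lower too. Mndal, a neighbour of Ifi202b in the same family, was lower by 5.47, and the class II histocompatibility gene H2-Eb1 by 3.95. Treated hearts of the B2KO line had a median Tnni3k of 0.73, and those of B6129SF2/J of 5.00.

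Across the 506 genes the median size of the difference was 1.18 in treated and 1.18 in untreated arrays. Of 273 other probe sets of these genes, 226 had the same sign (82.8%). Whether sequence differences between the lines under the probes lower the signal was not tested, since no probe sequence was used here. In 134 of the 506 genes 1 treated group had a mean below the array median.

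Rad51b, which acts in repair of DNA breaks by recombination, was the exception in size among these genes. In treated FVB it ran from 1.05 through 2.82 to 4.16, and in treated C57BL/6 from −2.82 through −2.16 to −1.68. Untreated medians were −1.47 in FVB and −2.55 in C57BL/6, so only treated FVB stood above the array median. The treated difference was 5.07 (SE 0.33, adjusted p = 1.97e-17), the untreated one 1.02 (SE 0.33, adjusted p = 0.029), and their difference 4.05 (SE 0.47, adjusted p = 2.31e-07). Treated FVB replicate 2 had −2.55. In the other lines the treated medians were −0.46 (B2KO) and −2.11 (B6129SF2/J). Of the 506 genes, 12 had a line difference that also changed with infusion, and in 7 of them it was larger after infusion.

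The matrix genes were described next, since isoproterenol is known to cause fibrosis. Of 51 matrix and fibrosis genes, 3 were higher and 6 lower in treated FVB, where 2.53% and 6.29% of all genes were. Their median difference was −0.01 (0.11 after quantile normalization and 0.14 after centring), beside −0.12 over all genes. In 47 of the 51 the mean of the treated arrays was above that of the untreated arrays in both lines (92.2%, where 37.1% of all genes were). None had a line difference whose change with infusion was called.

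The fibrillar collagens showed how near the lines lay. Col1a1, which encodes a chain of type I collagen, ran from 6.17 through 7.43 to 7.74 in treated FVB and from 6.47 through 6.86 to 7.72 in treated C57BL/6. These ranges overlapped almost entirely, and the difference was 0.26 (95% interval −0.34 to 0.85, adjusted p = 0.713). Col3a1, of type III collagen, differed by 0.38 (interval −0.01 to 0.77, adjusted p = 0.27), and Postn, a matrix protein of activated fibroblasts, by 0.44 (interval 0.00 below to 0.88 above, adjusted p = 0.25). Both passed the threshold after quantile normalization, after centring and with array weights. Tnc (tenascin-C) differed by 0.31 (interval −0.26 to 0.87) and Timp1, an inhibitor of metalloproteinases, by 0.08 (interval −0.68 to 0.84). Untreated, Timp1 was higher in FVB by 1.26 (SE 0.38, adjusted p = 0.0172); the change of that difference, −1.18, was not called (adjusted p = 0.238).

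The matrix genes that did differ mostly differed before infusion as well. Cilp, a matrix protein of cartilage and of the stressed heart, ran from 1.69 through 3.22 to 4.01 in treated FVB and from 4.96 through 5.39 to 6.51 in treated C57BL/6. The groups did not overlap, and the difference of −2.40 (SE 0.29, adjusted p = 6.42e-09) was −2.59 without infusion. Treated means lay above untreated ones by 2.39 in FVB and 2.19 in C57BL/6. Mmp3, a metalloproteinase (stromelysin), was lower in treated FVB by 2.90 (SE 0.30, adjusted p = 1.27e-10), and Timp4, the metalloproteinase inhibitor most typical of heart, by 2.00 (SE 0.36, adjusted p = 5.43e-05). Without infusion they were lower by 2.16 and 1.26. Sfrp2 and Ccn5 were lower by 1.24 and 1.22, with untreated differences of −1.42 and −1.12. Ccn2, connective tissue growth factor, was higher in treated FVB by 1.46 (SE 0.27, adjusted p = 7.49e-05) and untreated by 1.55, and Frzb, a Wnt antagonist, by 1.25 and 1.64. Comp (−1.19) and Tgfb2 (0.61) were unresolved.

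**Figure D3:**
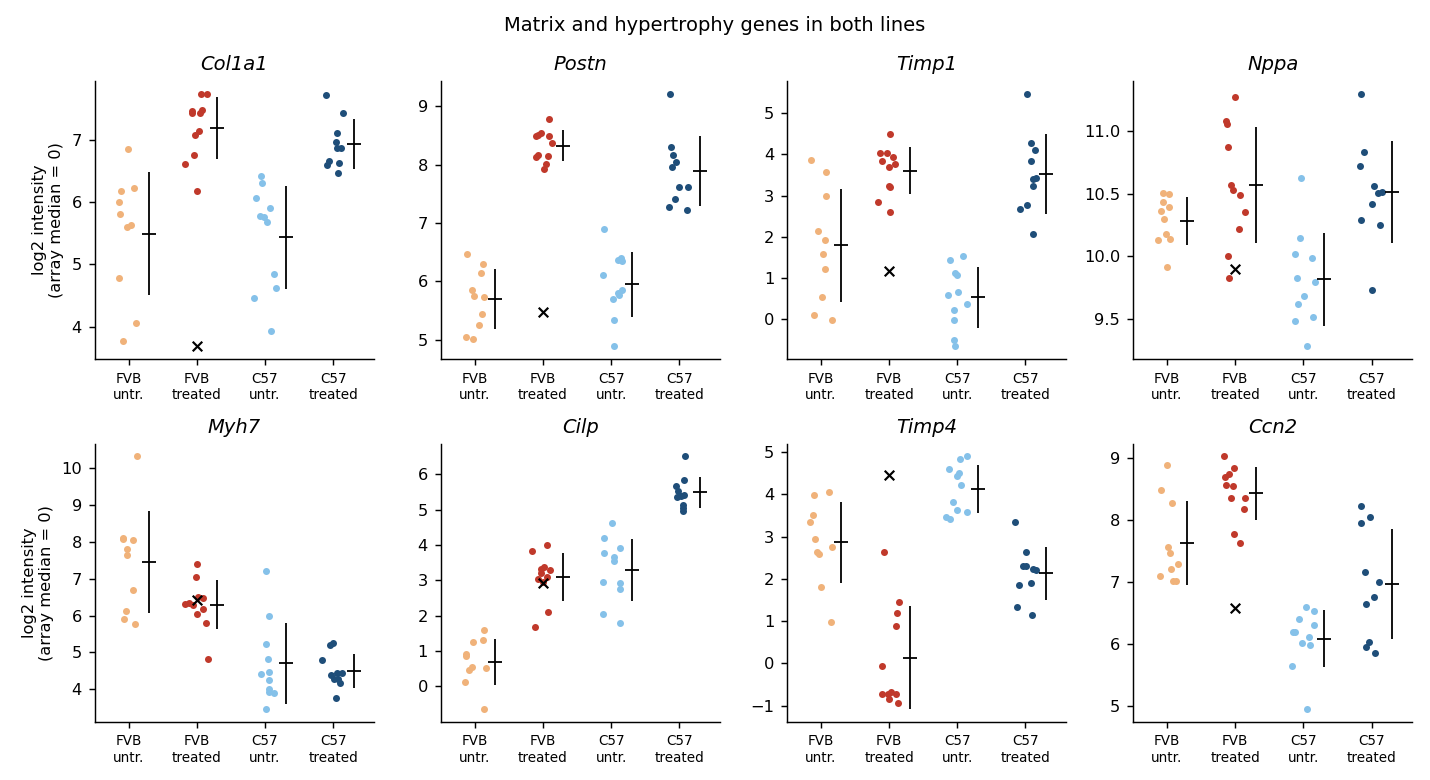
Log2 intensity of 8 matrix and hypertrophy genes in each array of the 4 groups (0 is the array median); dashes with bars are mean ± SD, and crosses mark treated FVB replicate 2, which the means leave out. Treated lines overlap for Col1a1, Postn, Timp1 and Nppa, while Cilp, Timp4, Ccn2 and Myh7 differ with and without infusion. The vertical axes do not start at 0.

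Of 31 contractile and hypertrophy genes, 2 were higher (6.45%, where 2.53% of all genes were) and 1 lower (3.23%, where 6.29% were) in treated FVB, with a median of −0.07 beside −0.12 over all genes. Treated means were higher in both lines for 10 of the 31 (32.3%, near the 37.1% of all genes). The change of the line difference was below 0 in 28 of the 31 (90.3%, where 57.2% of all genes were), with a median of −0.44 beside −0.08 over all genes, and was called for none. Other lists had like shares: 94.4% of tricarboxylic acid cycle and respiratory chain genes, 90.5% of glucose genes and 89.3% of antioxidant genes. The median change over all genes depended on the scale, at 0.01 after quantile normalization and 0.03 after centring. The median infusion effect of the contractile list was −0.04 in FVB and 0.37 in C57BL/6. Nppa (atrial natriuretic peptide), a stress hormone of the heart, ran from 9.82 through 10.53 to 11.28 in treated FVB and from 9.73 through 10.51 to 11.30 in treated C57BL/6. These ranges were nearly the same, with a difference of 0.06 (95% interval −0.31 to 0.42, adjusted p = 0.909). Nppb, the related brain natriuretic peptide, differed by 0.26 (interval −0.43 to 0.96), and skeletal α-actin, Acta1, by −0.48 (interval −1.17 to 0.21). The fast myosin heavy chain of the adult mouse heart, Myh6, differed by −0.00 (interval −0.34 to 0.34).

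Myh7, the slow myosin heavy chain, was higher in FVB with and without infusion. It ran from 4.82 through 6.33 to 7.41 in treated FVB and from 3.77 through 4.41 to 5.26 in treated C57BL/6, and the groups overlapped little. The treated difference was 1.79 (SE 0.38, adjusted p = 0.000905) and the untreated one 2.75 (SE 0.38, adjusted p = 4.07e-07). Untreated FVB replicate 10 had 10.3, above the 5.76 to 8.10 of the other untreated FVB arrays. Ankrd1, a stretch-responsive partner of titin, was higher in treated FVB by 0.70 (SE 0.20, adjusted p = 0.0191), a call lost in the fit of all 8 groups. Myl7, the regulatory light chain of atrial myosin, was lower by 0.75 (SE 0.20, adjusted p = 0.0113) and likewise lost there. Of 6 atrial markers it was the 1 called (16.7%, where 6.29% of all genes were lower).

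Of 24 calcium handling genes, 1 was higher (4.17%) and 2 were lower (8.33%) after infusion, near the 2.53% and 6.29% of all genes, and all 3 already differed. Casq1, the calsequestrin of skeletal muscle, was higher in treated FVB by 3.61 (SE 0.27, adjusted p = 1.29e-15) and untreated by 2.58. Casq2, the cardiac calsequestrin that stores calcium in the sarcoplasmic reticulum, was lower by 0.73 (SE 0.21, adjusted p = 0.0161; 0.187 in the fit of all 8 groups) and untreated by 0.60. Cacna1h, a T-type calcium channel, was lower by 3.77 (SE 0.28, adjusted p = 1.53e-15) and untreated by 3.26. The calcium pump Atp2a2 differed by −0.15 (95% interval −0.54 to 0.24) and its inhibitor Pln by −0.20 (interval −0.59 to 0.19). Of 39 adrenergic and cyclic AMP signalling genes, only Gnb1, a G protein β subunit, was called (2.56% higher, near the 2.53% of all genes). It was higher in FVB by 1.19 with infusion (SE 0.25, adjusted p = 0.000502) and by 1.15 without. Of 20 channel and gap junction genes, 1 was higher (5.00%) and 2 were lower (10.0%), where 2.53% and 6.29% of all genes were. Scn4b, a sodium channel β subunit, was higher by 1.07 and already differed untreated (0.69). Kcnj3, a subunit of the G-protein-gated potassium channel, was lower by 1.27 and already differed as well (−1.52). Kcnj8, of the ATP-sensitive one, was lower by 0.71 (adjusted p = 0.122 in the fit of all 8 groups) and unresolved.

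Differences of the fatty acid genes lay mostly below 0. Of 31 measured, 6 were called lower (19.4%, where 6.29% of all genes were) and none higher, and 28 of the 31 differences were below 0 (90.3%, where 64.5% of all genes were). Differences below 0 were about as frequent in 2 other metabolic lists, with 48 of 54 genes of the tricarboxylic acid cycle and respiratory chain (88.9%) and 24 of 28 antioxidant genes (85.7%). The fatty acid median was −0.24, beside −0.12 over all genes; after centring it was −0.09, beside 0.03. Hadh, an enzyme of β-oxidation, ran from 7.58 through 8.57 to 9.69 in treated FVB and from 8.87 through 9.96 to 10.6 in treated C57BL/6. Most FVB arrays lay below the C57BL/6 arrays, and the difference was −1.38 (SE 0.21, adjusted p = 2.67e-06), against −0.67 (adjusted p = 0.0241) without infusion. Ucp3, a mitochondrial carrier of muscle, was also lower in both states, by 0.85 and 0.88.

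Decr1 and Acads had no called difference before infusion. Decr1, needed for the oxidation of unsaturated fatty acids, ran from 6.50 through 6.85 to 7.96 in treated FVB and from 6.90 through 7.77 to 8.28 in treated C57BL/6. The groups overlapped; the treated difference was −0.72 (SE 0.21, adjusted p = 0.0182), the untreated one 0.32 (adjusted p = 0.311), and their difference −1.04 (SE 0.29, adjusted p = 0.0459). Acads, the short-chain acyl-CoA dehydrogenase, differed by −0.66 (SE 0.20, adjusted p = 0.0235) and 0.45 (adjusted p = 0.106), with a change of −1.11 (SE 0.28, adjusted p = 0.0267). Decr1 stayed in this class in 14 of the 42 leave-one-out fits and Acads in 40. Slc27a1, a fatty acid transporter, was lower by 1.12 and Acot1, a cytosolic acyl-CoA thioesterase, by 0.96, both unresolved. The other probe set of Slc27a1 had 0.14, and its call was lost with probe sets averaged (−0.49, adjusted p = 0.155) and in the fit of all 8 groups (adjusted p = 0.0634). The Ucp3 call was lost in that fit, after quantile normalization, after centring and with probe sets averaged (adjusted p from 0.0585 to 0.108). The list's count of lower calls ran from 4 (without treated C57BL/6 replicate 4) to 8 (without treated FVB replicate 12) when each array was left out, was 2 in the fit of all 8 groups, and was 2 without treated C57BL/6 replicates 4 and 8.

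**Figure D4:**
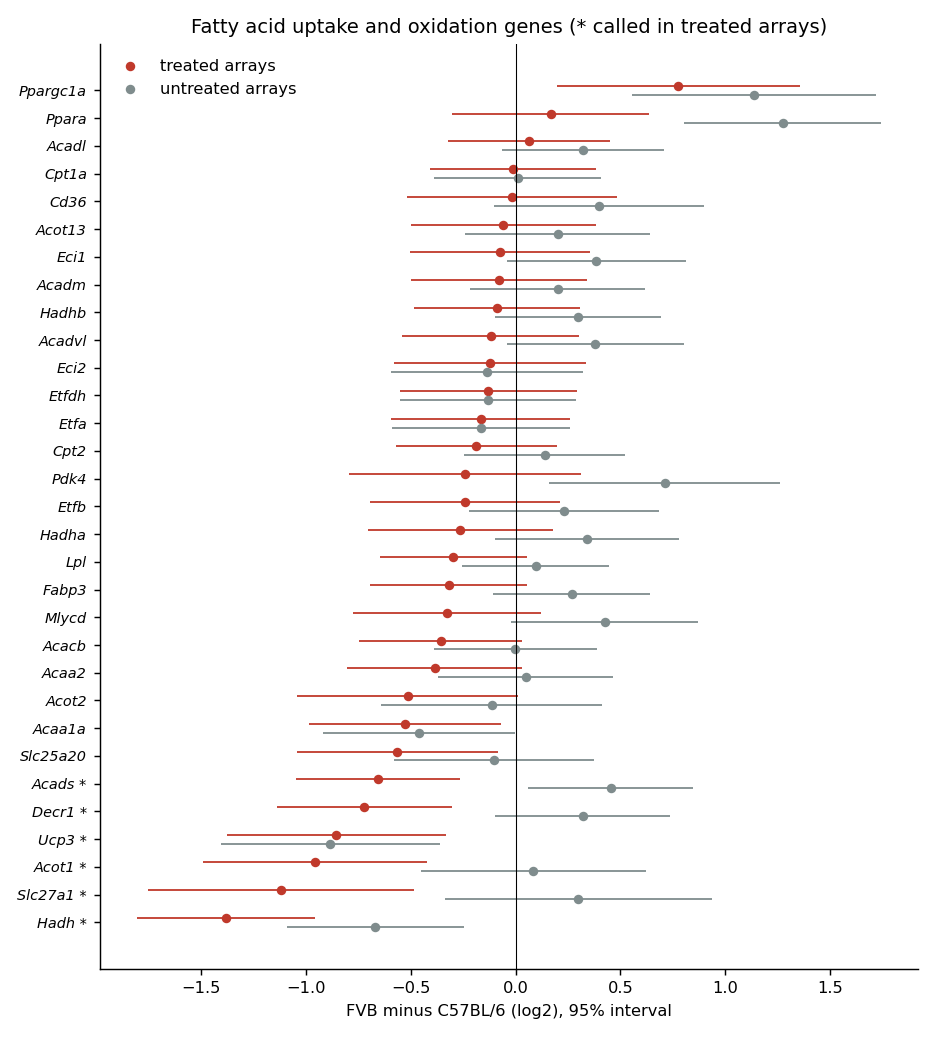
FVB minus C57BL/6 (log2) with 95% intervals for the 31 measured genes of fatty acid uptake and oxidation, in treated (red) and untreated (grey) arrays, ordered by the treated difference. In treated arrays 28 of 31 lie below 0 and 6 (asterisks) were called, from Acads (−0.66) to Hadh (−1.38).

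In the other metabolic lists few genes were called. Of 21 genes of glucose uptake and glycolysis, 1 was lower (4.76%, where 6.29% of all genes were). It was Fbp2, the muscle fructose bisphosphatase, lower by 1.72 (SE 0.23, adjusted p = 8.59e-08) and untreated by 1.60, with no overlap of the groups in either state. Of 54 genes of the tricarboxylic acid cycle and respiratory chain, 1 was lower (1.85%, where 6.29% of all genes were): Ndufv1, of complex I, by 1.05 (SE 0.20, adjusted p = 0.000187). It was unresolved, with an untreated difference of −0.48. Its other probe sets disagreed, since 1 was called lower (−1.67) and 1 was not called (−0.26). None of 28 antioxidant genes was called in the treated arrays. Hmox1 differed by −0.01 and Nnt, the mitochondrial transhydrogenase, by 0.63 (adjusted p = 0.0919). Nnt passed the threshold after quantile normalization (0.68, adjusted p = 0.00109) and after centring (0.78, adjusted p = 0.00772).

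The 57 genes that differed after infusion and not before were 11 higher and 46 lower in FVB. In 48 of them the mean moved farther between untreated and treated arrays in C57BL/6 than in FVB (84.2%, where 65.1% of all genes and 90.4% of the 251 with a called change did). In 22 of them 1 treated group had a mean below the array median, and of their 15 other probe sets 9 had the same sign. When each of the 42 arrays was left out in turn, 13 of the 57 stayed in the class every time, and 42 kept the treated call every time. With treated FVB replicate 2 kept, 50 of the 57 stayed. Without treated C57BL/6 replicates 4 and 8, which stood apart in early response genes, 18 of the 57 stayed in a class of 19. Among the genes described next, the change of the line difference missed the threshold there for Adgrb2 (−1.30, adjusted p = 0.0599), Zeb2 (−1.97, 0.063), Cfi (1.89, 0.0621), Syt12, Prcc, Pdzrn4, Zfp991, Slc13a3, Tnfrsf4, Cd80, Mid2 and Slc1a1, and stayed called for Usf1, Pcp4l1, Gpc3, Sprr1a, Pkd2l2, Apoa2, Myocd, Fpr2, Sema6c, Myef2 and Sapcd2. Of the 251 genes whose line difference changed, 149 differed only in untreated hearts.

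Usf1, a transcription factor that binds E-boxes, had the clearest separation among the lower genes. In treated FVB it ran from −2.53 through −1.13 to 0.58, in treated C57BL/6 from 0.76 through 1.42 to 1.80, and in the untreated groups the medians were −0.65 and −1.33. Every treated C57BL/6 array was above every treated FVB array, and its treated median stood above those of the untreated groups. The treated difference was −2.29 (SE 0.35, adjusted p = 2.14e-06), the untreated one 0.41 (adjusted p = 0.462) and the change −2.70 (SE 0.49, adjusted p = 0.0026). Its other probe set was called lower too, and the change missed the threshold when the probe sets were averaged (−1.07, adjusted p = 0.0664). Treated medians in the other lines were −0.80 in B2KO and 0.16 in B6129SF2/J.

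Pcp4l1, related to a calmodulin-binding protein of neurons, stayed in the class under every alternative that could assign it. Its treated FVB arrays ran from 2.08 through 2.96 to 4.33 and its treated C57BL/6 arrays from 4.10 through 5.16 to 5.38, with untreated medians of 3.89 and 4.21. The treated lines overlapped only at their edges, by a difference of −1.90 (SE 0.27, adjusted p = 4.33e-07) with a change of −1.78 (SE 0.38, adjusted p = 0.0107). Gpc3, a heparan sulphate proteoglycan of the cell surface, differed by −2.22 (SE 0.38, adjusted p = 2.81e-05) with a change of −2.37 (adjusted p = 0.0171). Treated C57BL/6 replicate 2 was high for it, at 3.82. Sprr1a, a cornified-envelope protein also induced in stressed heart muscle, differed by −1.99 (SE 0.37, adjusted p = 0.0001), and Adgrb2, an adhesion G-protein-coupled receptor, by −1.70 (SE 0.25, adjusted p = 1.56e-06). Adgrb2 medians were −1.06 in treated FVB and 0.32 in treated C57BL/6, and −1.31 and −1.07 untreated. Pkd2l2, of the polycystin channel family, differed by −2.45 (SE 0.33, adjusted p = 1.74e-07), Syt12 by −1.79, Prcc by −1.59, Apoa2 by −1.53 and Pdzrn4 by −1.42.

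Regulators of transcription were also among the lower genes. Myocd (myocardin), a coactivator of serum response factor in heart and smooth muscle, ran from 1.94 through 2.76 to 4.89 in treated FVB and from 3.77 through 4.43 to 5.33 in treated C57BL/6. The groups overlapped in part, with a difference of −1.43 (SE 0.41, adjusted p = 0.0165), an untreated one of 0.96 (adjusted p = 0.0999) and a change of −2.39 (SE 0.58, adjusted p = 0.0227). Its other probe set was called lower, and with treated FVB replicate 2 kept (5.96 on that array) the treated call was lost. Zeb2, a zinc finger repressor, differed by −1.71 (SE 0.37, adjusted p = 0.00115) on the probe set used, but of its 3 other probe sets only 1 had the same sign, and the averaged difference was −0.19 and not called. A further 3 genes, outside the naming rule, were picked after their values were seen because they stayed in the class in all leave-one-out fits: Inmt, a methyltransferase (−1.16), St6galnac6, a sialyltransferase (−1.07), and Bckdha, of branched-chain amino acid oxidation (−0.84).

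Among the 11 higher genes Cfi, the complement protease factor I, had treated groups that did not overlap. It ran from −0.36 through 0.32 to 0.88 in treated FVB and from −2.34 through −1.58 to −0.82 in treated C57BL/6, with untreated medians of −1.16 and −1.07. The treated FVB arrays stood highest, all near the array median. The difference was 1.86 (SE 0.35, adjusted p = 0.000133) and the change 1.89 (SE 0.50, adjusted p = 0.0351). Fpr2, a formyl peptide receptor of phagocytes, differed by 1.87 (SE 0.29, adjusted p = 3.2e-06) with a change of 1.72 (adjusted p = 0.0206); its medians were 0.43 and −1.58 treated and −0.10 and −0.02 untreated. Sema6c, a transmembrane semaphorin, differed by 2.37 (SE 0.56, adjusted p = 0.00278) with a change of 3.56 (SE 0.79, adjusted p = 0.0147). Its other probe set had the opposite sign. The rest were Zfp991, Myef2, Slc13a3, Tnfrsf4, Cd80, Sapcd2, Mid2 and Slc1a1, with differences from 0.72 (Slc1a1) to 1.12 (Zfp991). The other probe set of Myef2 had −0.28, and its difference fell to 0.21 (adjusted p = 0.389) with probe sets averaged. Treated calls were lost without treated C57BL/6 replicates 4 and 8 for Tnfrsf4 (adjusted p = 0.123), Cd80 (0.0982) and Mid2 (0.225), and those of Tnfrsf4, Mid2, Slc1a1 and Sapcd2 were lost under other alternatives as well. The T cell costimulators Tnfrsf4 and Cd80 differed by 1.02 and 0.99.

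**Figure D5:**
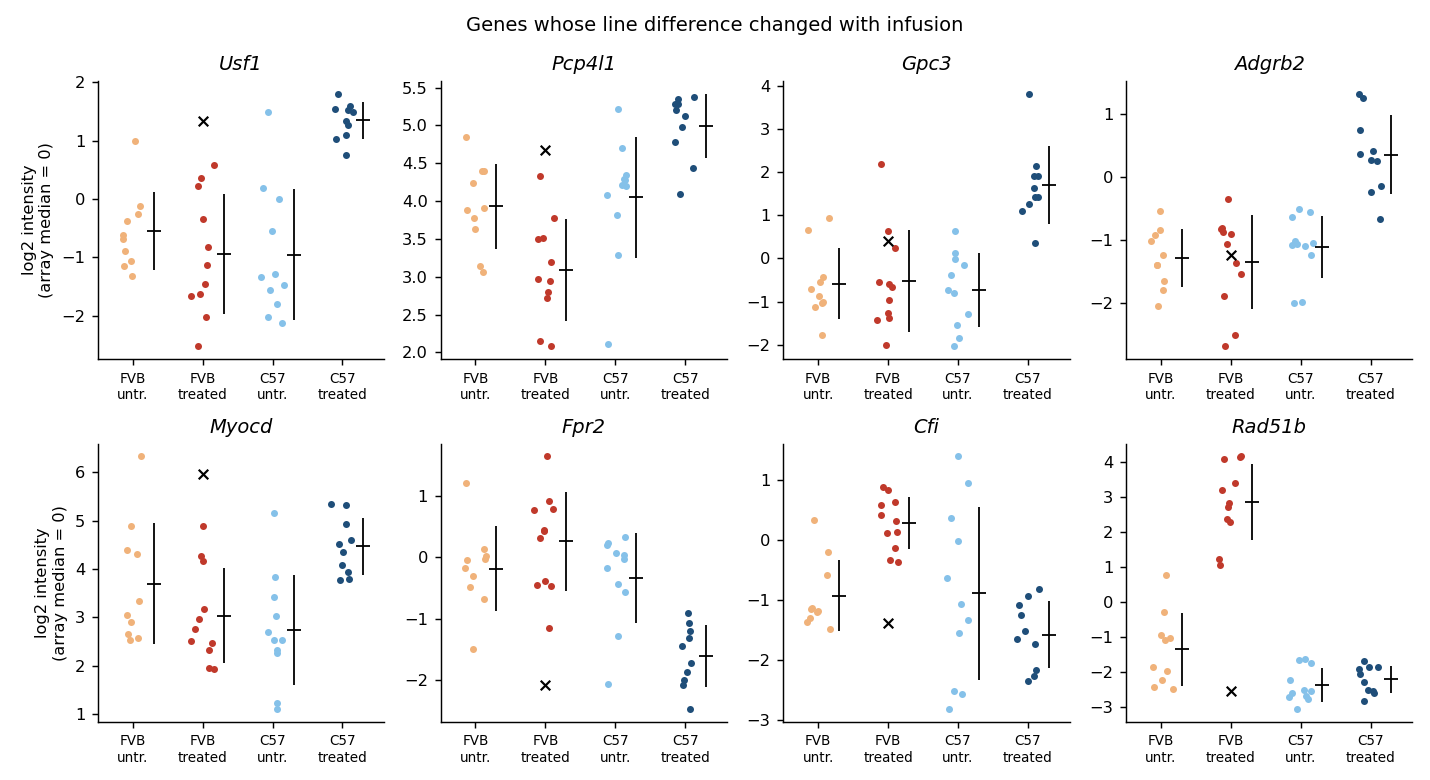
Log2 intensity (0 is the array median) of 7 genes that differed after infusion only and of Rad51b, in each array of the 4 groups; dashes with bars are mean ± SD and crosses mark treated FVB replicate 2, left out of the means. For Usf1 all 10 treated C57BL/6 arrays lie above the treated FVB arrays, and for Cfi and Rad51b all 11 treated FVB arrays lie above treated C57BL/6. The vertical axes do not start at 0.

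Early response genes, which adrenergic signals and stress switch on within minutes, depended on few arrays. Of 26 measured, 1 was lower in treated FVB (3.85%, where 6.29% of all genes were) and none higher. In untreated FVB 6 were higher, where 6.73% of all genes were. The change of the line difference was called for Junb, Btg2 and Ier2, all downward, where 1.55% of all genes were called downward. It was below 0 in 24 of the 26 (92.3%, where 57.2% of all genes were), a share also near those of the contractile list (90.3%) and the respiratory chain list (94.4%). Fos ran from 0.87 through 2.50 to 4.68 in treated FVB and from 0.69 through 4.33 to 8.62 in treated C57BL/6. Replicates 4 and 8 of treated C57BL/6 were at 8.62 and 8.55 for Fos and at 6.30 and 6.01 for Junb, where the next array had 5.01 and 3.76. The median treated difference of the list was −0.34, and 0.20 without these 2 arrays. Junb, a subunit of the AP-1 transcription factor, was higher in untreated FVB by 2.07 (SE 0.39, adjusted p = 0.000126) and differed by −0.52 after infusion, a change of −2.58 (SE 0.55, adjusted p = 0.0111). Without both arrays that change was −1.89 (adjusted p = 0.0216). Ier2 was lower in treated FVB by 1.40 (SE 0.37, adjusted p = 0.00881), and by 0.67 without both arrays (adjusted p = 0.118).

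Junb and Btg2 are shown with stretches of their promoters, because cyclic AMP acts on early genes through a short response element bound by CREB. Windows from 250 bases before to 50 after each start, from RefSeq on GRCm38.p6, were searched on both strands for TGACGTCA and for its shorter core TGACG, which TGACGTCA contains. Of 32851 windows, 1.79% held the full element and 20.8% the core. Windows were found for 23 genes of the early list; 2 genes held the full element and 13 the core. Capitals mark the element, full in Btg2 (chr1:134079288-134079347, minus strand) and core only in Junb (chr8:84978824-84978880, minus strand). These letters describe the reference sequence and show no binding.
Btg2: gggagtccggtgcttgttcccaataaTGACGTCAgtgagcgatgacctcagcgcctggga
Junb: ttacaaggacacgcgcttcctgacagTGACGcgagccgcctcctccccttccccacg

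Immune genes were followed in 4 lists. Of 17 genes of antigen presentation, 1 was higher (5.88%) and 2 were lower (11.8%) in treated FVB, where 2.53% and 6.29% of all genes were. All 3 already differed: H2-D1 by 1.09, H2-Aa by −1.59 and H2-Eb1 by −3.95. Probe sets of H2-Aa disagreed, since 1 of its 3 others was called in the opposite direction (1.87). The H2-D1 call was lost in the fit of all 8 groups (adjusted p = 0.111). Of 23 interferon response genes, 3 were lower (13.0%, where 6.29% of all genes were) and none higher. Without infusion 8 of the 23 were lower, where 8.88% of all genes were. The change of the line difference was called for none of them. Ifit3 was lower by 1.15 and Cmpk2 by 1.04 with infusion, and by 1.31 and 1.49 without. With probe sets averaged the Cmpk2 difference was −0.58 and not called (adjusted p = 0.142). Irf7, the transcription factor that amplifies interferon responses, was unresolved at −0.96 (SE 0.28, adjusted p = 0.0217), a call lost without treated FVB replicate 1. Of 23 cytokines and chemokines, 2 were higher (8.70%, where 2.53% of all genes were) and 1 was lower (4.35%, where 6.29% were). Ccl8, a monocyte chemoattractant, was higher by 1.29, Cxcl12 higher by 0.67 and Cxcl9 lower. The Cxcl12 call was lost in the fit of all 8 groups (adjusted p = 0.325), with no filter (0.0546), with probe sets averaged (0.48, adjusted p = 0.167) and with treated FVB replicate 2 kept (0.49, adjusted p = 0.234). Cxcl9, which draws T cells, was lower by 1.76 with infusion and by 3.49 without, and that gap narrowed by 1.72 (SE 0.46, adjusted p = 0.0379). With no filter the adjusted p was 0.0583, without the 2 untreated arrays of high Gapdh difference 0.0573, and without treated C57BL/6 replicates 4 and 8 0.0553. Of 16 complement and acute phase genes 2 were higher (12.5%, where 2.53% of all genes were) and none lower. They were Cfi, described above, and Serpina3n, an acute phase protease inhibitor, which was higher by 1.64 and, untreated, by 2.89.

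Mast cell proteases were lower in treated FVB. Mcpt4, a chymase, ran from −1.51 through −0.68 to 0.12 in treated FVB and from 0.20 through 1.42 to 2.60 in treated C57BL/6. The groups did not overlap, with a difference of −2.12 (SE 0.33, adjusted p = 3.98e-06) and an untreated one of −0.83 (adjusted p = 0.0781). Cma1, another chymase, was lower by 1.97 and Cpa3, the mast cell carboxypeptidase, by 1.96, and both were lower before infusion, by 1.88 and 1.03. These 3 were the ones called among 7 markers of neutrophils and mast cells (42.9%, where 6.29% of all genes were lower). Differences of 3 of the 7 were above 0, and the median was −0.13, beside −0.12 over all genes. The summed level of 8 such markers ran from 2.57 to 5.61 in treated FVB and from 3.16 to 4.79 in treated C57BL/6. Lgals3, a galectin of macrophages, was lower by 1.64 (SE 0.28, adjusted p = 3.2e-05), with no overlap of the treated groups, and by 1.16 without infusion. Of 14 macrophage and monocyte markers, it and Cd163 were the 2 called (14.3%), the latter lost in 5 of the alternatives.

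Differences of the mitotic genes lay mostly above 0. Of 25 cell cycle genes, 3 were higher in treated FVB (12.0%, where 2.53% of all genes were) and none lower. Of the 25 differences, 23 were above 0 (92.0%, where 35.5% of all genes were). Their median was 0.58, beside −0.12 over all genes. Kif11, a spindle motor, was higher by 1.00, Aurkb, the kinase that corrects chromosome attachment, by 0.93, and Prc1, which organizes the spindle midzone, by 0.81. All 3 were unresolved and close to the array median. Kif11 ran from −0.09 through 0.52 to 2.50 in treated FVB and from −1.35 through −0.33 to 1.79 in treated C57BL/6, where replicate 7 alone was above 0.32. The number called higher ran from 1 (without treated FVB replicate 8) to 6 (without treated C57BL/6 replicate 7), and it was 1 with treated FVB replicate 2 kept, 1 without treated C57BL/6 replicates 4 and 8, and 0 with probe sets averaged.

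Other cell type markers seldom differed, and the calls of Dpt, Tie1, Kcnj8 and Cd163 were lost without treated C57BL/6 replicates 4 and 8, as were those of Casq2, Ucp3, Acot1, Kif11, Aurkb, Per2, Nr1d2, Hsp90aa1, Klhl36, Hr and Zbtb12. Of 9 fibroblast markers Dpt was lower (−1.16), of 12 endothelial markers Tie1 (−0.64, lost in 6 of the alternatives) and of 10 smooth muscle and pericyte markers Kcnj8. These made up 11.1%, 8.33% and 10.0% of their lists, where 6.29% of all genes were lower. Dpt already differed untreated (−0.96). Of 7 adipocyte markers 1 was lower (14.3%, where 6.29% of all genes were). It was Cidea, by 1.12 (SE 0.30, adjusted p = 0.00865), and the median of the 7 was −1.09. The summed level of 8 adipocyte markers ran from 9.95 to 11.5 in treated FVB and from 10.2 to 11.1 in treated C57BL/6. Dct, a pigment cell enzyme, was the 1 called of 3 melanocyte markers (33.3%, where 6.29% of all genes were lower), lower by 1.75 (SE 0.37, adjusted p = 0.000679). It ran from 0.53 to 1.93 in treated FVB and from 2.07 to 3.89 in treated C57BL/6, with untreated medians of −0.99 and 0.27. None of 4 lymphocyte, 2 erythroid, 8 epicardial and mesothelial and 3 skeletal muscle markers that passed the filter was called, and lung epithelium had 1 such marker, which was not called. The part that cell makeup had in the gene lists was not tested.

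Of 4 nerve and glia markers 1 was called, Dbh, which makes noradrenaline, higher by 0.74 (SE 0.23, adjusted p = 0.0321). With probe sets averaged it was 0.22 (adjusted p = 0.616). Of 3 genes of the sex chromosome check 1 was lower (33.3%, where 6.29% of all genes were). It was Eif2s3y, lower by 1.06 (adjusted p = 0.0163), and it already differed untreated (−0.88). In the fit of all 8 groups its adjusted p was 0.077. The other 2, Kdm5d and Uty, differed by −0.11 and −0.13.

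Clock and stress genes gave few calls. Of 16 circadian clock genes, 2 were higher (12.5%, where 2.53% of all genes were) and 1 was lower (6.25%, where 6.29% were). Per2 was higher by 1.15 and Nr1d2 by 0.68, and Npas2 was lower by 0.92. Per2 already differed untreated (1.38), while Nr1d2 and Npas2 were unresolved. The Per2 and Nr1d2 calls were lost in the fit of all 8 groups (adjusted p = 0.0718 and 0.106) and with probe sets averaged (0.062 and 0.277); the time of day of collection is not given. Hsp90aa1, a cytosolic chaperone, was the 1 called of 26 heat shock and endoplasmic reticulum stress genes (3.85%, where 2.53% of all genes were higher). It was higher by 0.68, a call lost in 6 of the alternatives. The inducible chaperone Hspa1a differed by 1.45 (adjusted p = 0.203). Among unresolved genes the widest differences were those of Hbb-b2, a β-globin (3.04), Bex1 (1.99), E2f2 (1.95) and Chil1 (1.75) on the higher side and Mcpt4, Rasd1 (−1.82), Dct and Gxylt2 (−1.61) on the lower. The other probe set of Hbb-b2 had −0.32, not called, so its probe sets disagree, and E2f2 fell to 1.11 (adjusted p = 0.0508) with probe sets averaged. Dio2, which activates thyroid hormone, differed by 0.09 (95% interval −0.47 to 0.65), with medians of 2.85 and 2.93 in the treated lines and 0.33 and 0.50 in the untreated. Retnla, a secreted protein of alternatively activated macrophages and fat, differed by −0.98 (adjusted p = 0.074).

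Of the 13 genes with opposite signs, 12 moved farther in C57BL/6. Zbtb12, a zinc finger gene, was higher in untreated FVB by 1.43 and lower in treated FVB by 1.01, with medians of 0.23 and 1.16 in the treated lines and 0.27 and −1.06 in the untreated ones. The medians of FVB lay close together and those of C57BL/6 on either side of them, on values close to the array median. Klhl36 and Hr were lower by 1.03 each after infusion, and higher by 0.96 each before. The Hr call was lost with probe sets averaged (−0.40, adjusted p = 0.314). Fam110c and Depp1 were higher by 1.00 and 0.94 after, and lower by 0.97 and 1.01 before. The other probe set of Depp1 showed no change of sign, with 1.26 after and 0.40 before, the latter not called. With no filter the treated Depp1 call was lost (adjusted p = 0.0509 in limma).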

How the data were processed

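Heart RNA was hybridised to Affymetrix mouse arrays from 10 µg of total RNA, per the labels' protocols. The deposited intensity values were made with GCRMA (version not given in the sources used here), per the submitters' processing notes. Each array had a median of 1, and log2 was taken here. The number of arrays limits the precision. Of 45101 probe sets, 34945 with 1 gene symbol (updated through RefSeq on GRCm38.p6) gave 18193 genes, each represented by its brightest probe set, and 11801 with a group mean above log2 0 were tested. Genes withheld or without such a probe set were not analysed here.

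limma 3.58.1 in R 4.3.3 fitted 4 groups on 42 arrays, with Benjamini-Hochberg adjustment; the fit was tested on simulated data. Named genes were a fixed set, the largest differences of each class, and up to 4 called members of each list. The members and lists were chosen with earlier results of these data known. Alternatives covered arrays, filters, scaling, probe sets, moderation, weights and replicate numbers.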

Additional observations from a re-analysis of the deposited data

Results flagged for a closer look

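Of 230 groups of values of named genes, 20 held an array whose gap to the rest was wide for its group, where chance alone marks about 1 in 20 groups. All 20 lay in untreated FVB or treated C57BL/6. Wide gaps in the remaining groups were not marked, so the marks do not compare the lines. For example, Cacna1h was 2.02 on treated FVB replicate 11, against −1.133 to 0.325 on the other treated FVB arrays without replicate 2. In treated C57BL/6, replicate 7 had Atp2a2 at 10.41 (others 10.79 to 11.18), Ndufs5 at 7.89 (others 8.56 to 9.25) and Tnni3k at 4.47 (others 5.00 to 5.45). The same array also had E2f2 at 2.45 (others −1.90 to 0.16), Ndufv1 at 7.84 (others 8.74 to 9.46) and Kif11 at 1.79 (others −1.35 to 0.32). The same array also had Aurkb at 1.34 (others −1.32 to −0.12) and Cma1 at −0.26 (others 0.97 to 2.34). Untreated FVB replicate 10 had Myh7 at 10.32 (others 5.76 to 8.10), Nnt at 7.78 (others 8.73 to 9.40) and Zeb2 at 6.77 (others 1.53 to 2.79). That array also had Slc27a1 at 2.24 (others 3.74 to 5.42), and 3-prime minus 5-prime differences of 2.06 for Gapdh and 4.18 for β-actin. In treated C57BL/6, replicate 2 had Gpc3 at 3.82 (others 0.36 to 2.13) and Lgals3 at 7.48 (others 4.85 to 5.86). In treated C57BL/6, replicate 5 had Zfp991 at 0.44 (others 1.51 to 2.42). Untreated FVB replicate 3 had Usf1 at 0.99 (others −1.32 to −0.13). In treated C57BL/6, replicate 9 had Pdzrn4 at −0.13 (others 0.88 to 1.84). In treated C57BL/6, replicate 8 had H2-Eb1 at 3.17 (others 4.23 to 5.31). In treated C57BL/6, replicate 3 had Rasd1 at −1.87 (others 0.78 to 3.22). Untreated FVB replicate 6 had Ndufv1 at 8.98 (others 8.12 to 8.52). The causes were not tested.

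For 32 named genes the effect of infusion differed between the lines, by the limma test of the change of the FVB minus C57BL/6 difference, whose values follow. Most of them were named from the class different after infusion only, which requires this change to be called. The count of 32 thus follows largely from the naming, and 2.13% of all genes had a called change. Upward changes were Rad51b 4.05 (adjusted p = 2.31e-07), Sema6c 3.56 (adjusted p = 0.0147), Fam110c 1.97 (adjusted p = 0.00319), Depp1 1.94 (adjusted p = 0.0113), Cfi 1.89 (adjusted p = 0.0351) and Cxcl9 1.72 (adjusted p = 0.0379). Further upward changes were Fpr2 1.72 (adjusted p = 0.0206), Tnfrsf4 1.69 (adjusted p = 0.0419), Sapcd2 1.56 (adjusted p = 0.0149), Cd80 1.5 (adjusted p = 0.0446), Myef2 1.49 (adjusted p = 0.019) and Mid2 1.49 (adjusted p = 0.0386). The remaining upward changes were Slc13a3 1.49 (adjusted p = 0.0268), Zfp991 1.32 (adjusted p = 0.0451) and Slc1a1 1.16 (adjusted p = 0.0455). Downward changes were Usf1 −2.70 (adjusted p = 0.0026), Junb −2.58 (adjusted p = 0.0111), Zbtb12 −2.44 (adjusted p = 0.00388), Myocd −2.39 (adjusted p = 0.0227), Gpc3 −2.37 (adjusted p = 0.0171) and Zeb2 −2.14 (adjusted p = 0.0263). Further downward changes were Sprr1a −2.13 (adjusted p = 0.0244), Klhl36 −1.99 (adjusted p = 0.0055), Hr −1.99 (adjusted p = 0.0213), Syt12 −1.98 (adjusted p = 0.0446), Prcc −1.88 (adjusted p = 0.0457) and Ier2 −1.84 (adjusted p = 0.0493). The remaining downward changes were Pcp4l1 −1.78 (adjusted p = 0.0107), Pkd2l2 −1.77 (adjusted p = 0.0368), Apoa2 −1.65 (adjusted p = 0.0446), Adgrb2 −1.53 (adjusted p = 0.019) and Pdzrn4 −1.41 (adjusted p = 0.0345).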

How the results depend on the processing

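With each array left out in turn, treated calls ran from 833 (without treated C57BL/6 replicate 3) to 1195 (without treated FVB replicate 12), untreated calls from 1474 to 2071, genes already different from 461 to 559, genes different after infusion only from 22 (without treated FVB replicate 9) to 83 (without treated FVB replicate 12), and changed line differences from 102 (without untreated C57BL/6 replicate 1) to 414 (without untreated C57BL/6 replicate 10). Changed line differences numbered 138 in the fit of all 8 groups, 107 with no filter, 816 after quantile normalization, 717 after centring and 1209 with array weights; genes different after infusion only numbered 37, 29, 149, 146 and 349 in the same order, and 26 under the stricter filter. Treated calls were 674 under the stricter filter and 2161 with array weights. Untreated calls were 3369, 3067 and 2777 after quantile normalization, centring and array weights, and genes already different 794, 771 and 846. Without treated C57BL/6 replicates 4 and 8, chosen after seeing the data, there were 749 treated calls, 77 changed line differences, 443 genes already different and 19 different after infusion only. The causes were not tested. The changed line difference of Zeb2 turned to 0.029 (adjusted p = 0.962 in limma) with probe sets averaged.

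With the replicate number as a block (replicate block), 127 changed line differences and 29 genes different after infusion only were called, and 920 treated genes. Deviations of arrays that share a number correlated from −0.21 to 0.11 over 9 numbers, so the numbers do not pair the arrays. Signals near the array median limit many of the genes different after infusion only, and the deposited values carry no error for single arrays.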

Other observations

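Line differences that were called only without infusion were also numerous. Of 1323 such genes, 149 had a line difference that changed with infusion, and in 138 of these the mean moved farther in C57BL/6 (92.6%, where 90.4% of the 251 genes with a called change and 65.1% of all genes did). Heart channel and calcium genes were among them, picked after their values were seen. The change was called downward for 2 of 24 calcium handling genes and 2 of 20 channel and gap junction genes, where 1.55% of all genes were. Slc8a1, the sodium-calcium exchanger, had medians of 3.35 and 1.33 in untreated FVB and C57BL/6 and of 3.27 and 3.33 after infusion, a change of the line difference of −1.82 (SE 0.52, adjusted p = 0.0481 in limma). Kcnh2, a channel of repolarization, had 4.32 and 3.51 untreated and 4.44 and 4.96 treated, a change of −1.28 (SE 0.33, adjusted p = 0.0344). Cacna1g, a T-type calcium channel, had 2.69 and 1.02 untreated and 1.94 and 1.79 treated, a change of −1.63 (SE 0.45, adjusted p = 0.044). In the smooth muscle list Tagln changed by −1.10 (adjusted p = 0.0496) and in the endothelial list Egfl7 by −0.99 (adjusted p = 0.0412).

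Treated FVB replicate 2 correlated over the genes tested at a median r of 0.937 with untreated C57BL/6, 0.925 with untreated FVB, 0.921 with treated C57BL/6 and 0.908 with the other treated FVB arrays. Genes are not independent replicates, so these values describe the array.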
